A study of Mus musculus with 6 samples.

Results

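The genes described here are the 10 dual-specificity MAP kinase phosphatases, Dusp1, Dusp2, Dusp4, Dusp5, Dusp6, Dusp7, Dusp8, Dusp9, Dusp10 and Dusp16, in regulatory T cells (Treg) from mouse liver and spleen. They were chosen by gene symbol, each had 1 row on the array, and together they are 10 of 38854 genes measured. Treg are the suppressive CD4 T cells whose identity is set by the transcription factor Foxp3. Expression was measured on 6 arrays, 3 of liver Treg (arrays 2, 3 and 7) and 3 of spleen Treg (arrays 4, 5 and 6). All cells came from Foxp3-GFP mice, in which green fluorescent protein reports Foxp3. All mice received complexes of interleukin-2 with an anti-IL-2 antibody (IL-2/IL-2Ab) for 3 days and then rested for 3 days, and no untreated group was analysed here. The age of the mice and the number of animals behind each array are not given in the labels, so p-values reflect array-to-array spread only, and part of it may be technical. The labels name fluorescence-activated sorting in one place and magnetic isolation in another.

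These phosphatases switch off MAP kinases by removing phosphate from both the threonine and the tyrosine of the activation loop. Dusp1, Dusp2, Dusp4 and Dusp5 act in the nucleus and are transcribed within a short time of MAP kinase activation, as feedback. Dusp6, Dusp7 and Dusp9 act in the cytoplasm on ERK, and Dusp8, Dusp10 and Dusp16 act mainly on the stress kinases JNK and p38. In T cells the activity of ERK, JNK and p38 follows signals of the T cell receptor, of costimulation and of cytokines, and these phosphatases limit how long it lasts.

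The Treg label was checked against its markers. Foxp3 measured 9.52, 9.57 and 9.31 on liver arrays 2, 3 and 7 and 9.50, 9.57 and 9.40 on spleen arrays 4, 5 and 6. Il2ra, Ctla4 and Cd4 lay between 10.16 and 12.16 on every array. All values are log2 signals, so a difference of 1 is a doubling. Background rows, which match no mouse transcript, averaged 4.09 to 4.55 per array, highest on spleen array 5, and the brightest of these GC-graded rows reached 7.31 to 8.45. All 10 phosphatases lay above the mean background on every array, but Dusp6, Dusp8, Dusp9 and Dusp16 lay below the brightest background row on every array. Signal and background cannot be separated well for these 4. Dusp10 lay below the brightest background row on liver arrays 2 and 3, at 7.60 and 7.79 against 7.78 and 7.93. Dusp2 and Dusp7 lay below it on spleen array 5. Folds of dim genes are compressed by the array summary. In bulk samples of this kind, fewer cells of a type and less RNA per cell cannot be told apart.

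Promoter sequences are shown for Dusp10 and Dusp16, which had the 2 most negative differences between liver and spleen, for Dusp5, whose window held a pair of adjacent serum response elements, and for Dusp1, whose window held a cyclic AMP response element. Each is the 250 bases before the annotated start, 5′ to 3′ on the strand of the gene, from RefSeq on GRCm38.p6. Capitals mark matches to any motif searched.
Dusp10 promoter, chr1:184034131-184034380, plus strand: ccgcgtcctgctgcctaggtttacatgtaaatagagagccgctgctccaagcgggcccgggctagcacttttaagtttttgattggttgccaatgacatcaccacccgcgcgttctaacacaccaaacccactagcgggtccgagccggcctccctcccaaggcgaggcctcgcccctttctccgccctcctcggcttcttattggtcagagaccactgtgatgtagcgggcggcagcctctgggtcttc
Dusp16 promoter, chr6:134792629-134792878, minus strand: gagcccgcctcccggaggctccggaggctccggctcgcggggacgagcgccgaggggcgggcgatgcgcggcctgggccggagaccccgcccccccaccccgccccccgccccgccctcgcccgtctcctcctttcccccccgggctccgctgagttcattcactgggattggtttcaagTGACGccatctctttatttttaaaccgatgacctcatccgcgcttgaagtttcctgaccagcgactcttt
Dusp5 promoter, chr19:53528895-53529144, plus strand: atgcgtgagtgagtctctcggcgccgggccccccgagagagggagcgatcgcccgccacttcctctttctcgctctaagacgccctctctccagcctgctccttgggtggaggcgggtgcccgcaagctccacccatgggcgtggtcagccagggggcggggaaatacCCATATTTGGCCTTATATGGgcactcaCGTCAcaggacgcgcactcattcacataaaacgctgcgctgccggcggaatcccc
Dusp1 promoter, chr17:26508473-26508722, minus strand: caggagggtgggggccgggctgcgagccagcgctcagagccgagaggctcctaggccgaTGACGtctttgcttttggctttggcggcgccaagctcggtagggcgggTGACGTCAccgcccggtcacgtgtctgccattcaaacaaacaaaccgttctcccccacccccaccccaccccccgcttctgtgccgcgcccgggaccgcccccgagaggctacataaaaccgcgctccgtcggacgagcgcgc
The motifs were searched on both strands in the 8 phosphatase promoters of the table. The full cyclic AMP response element (CRE) TGACGTCA was found in 2 of the 8, those of Dusp1 and Dusp8, and in 1.55% of all 32851 promoter windows of this length. Its short form TGACG, which every full element also contains, was found in 4 of the 8 (Dusp1, Dusp5, Dusp8 and Dusp16) and in 17.8% of all windows. The CArG box, the site of serum response factor, was found in the Dusp5 window alone among the 8, as CCATATTTGG beginning 82 bases before the start and CCTTATATGG beginning 72 bases before it. A CArG box was present in 1.47% of all windows. The AP-1 site TGANTCA (6.75% of all windows) and the ETS core CCGGAA (12.0%) were found in none of the 8. A match describes letters in a window and says nothing of binding.

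Liver and spleen Treg were compared to ask whether these phosphatases differ between the tissues after expansion by interleukin-2. The JNK and p38 phosphatase Dusp10 had the largest difference, 1.69-fold higher by mean in spleen, and Dusp16, Dusp5 and Dusp4 were higher in spleen by 1.24-fold, 1.23-fold and 1.19-fold. Dusp7 and Dusp9 were higher in liver by 1.13-fold and 1.09-fold. By limma with equal weights for the 6 arrays and a Benjamini-Hochberg adjusted p under 0.05 over all genes, 0 of 10 were called, beside 0.0206% of all genes (8 genes). With weights estimated per array, 2 of 10 were called (Dusp7 and Dusp10), beside 9.09% of all genes. The weight was 9.34 for liver array 2, 2.35 for spleen array 6 and 0.188 to 1.05 for the others. Weighted differences therefore rest mostly on liver array 2 and spleen array 6. At an unadjusted p under 0.05, 2 of 10 were past the threshold (Dusp10 and Dusp5), beside 3.77% of all genes. Every liver array lay below every spleen array in 2 of 10 (Dusp10 and Dusp1), beside 3.09% of all genes, and above in 0 of 10, beside 3.11%.

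In 7 of the 10 the liver mean was the lower, beside 57.7% of all genes, and the median difference (liver minus spleen) of the 10 was -0.19 on the log2 scale, beside -0.02 over all genes. Leaving out spleen array 5 gave a median of -0.11, and leaving out spleen array 6 gave -0.28. With array weights the median turned to 0.0323. By class, the median difference was -0.31 for the 3 JNK and p38 phosphatases, -0.22 for the 4 nuclear ones and 0.12 for the 3 cytoplasmic ERK phosphatases. With 3 genes in a class, -0.31 is the value of Dusp16 and 0.12 that of Dusp9. Both genes lay below the brightest background row on every array. The standard errors of single genes ran from 0.11 to 0.19, so differences between the classes rest on few genes and were not tested.

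**Figure D1:**
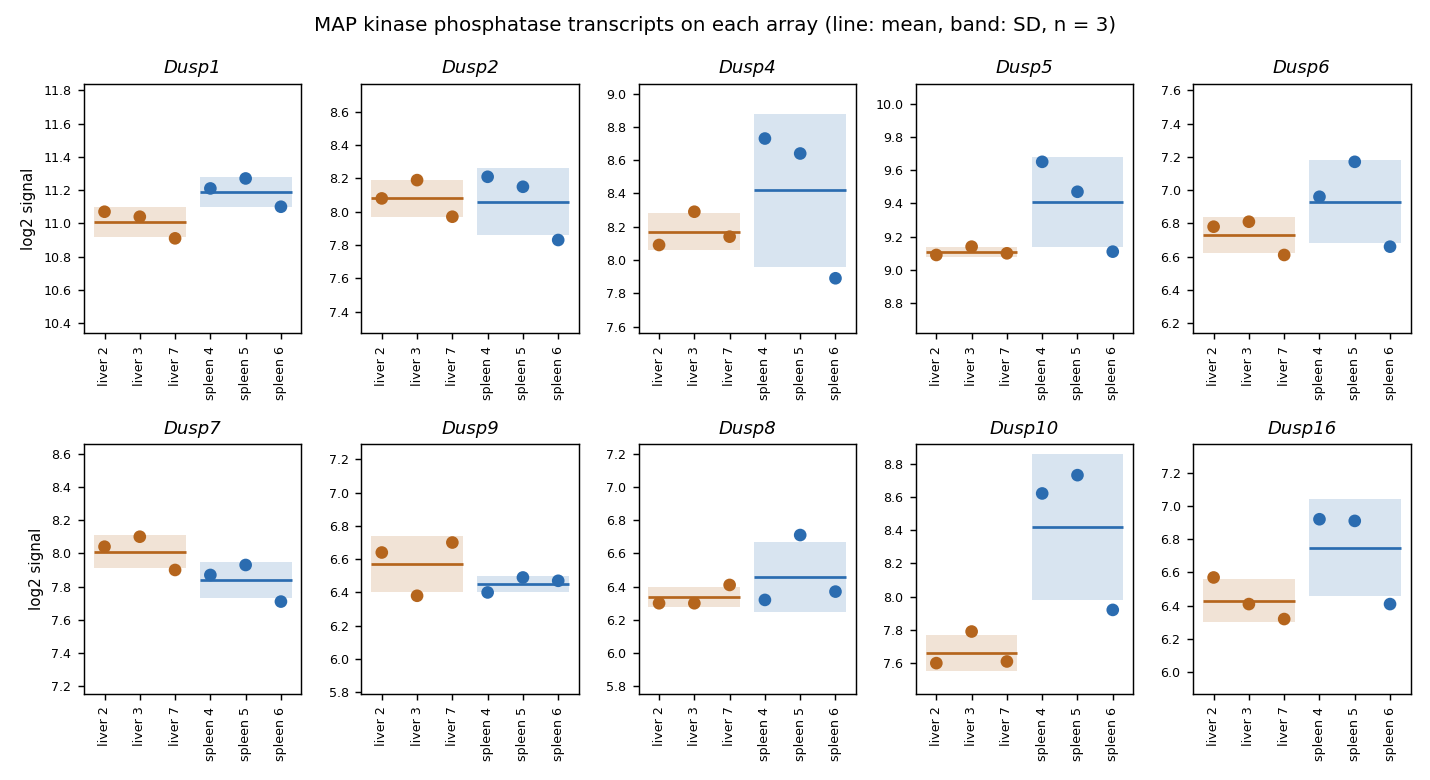
Log2 signal of each phosphatase (vertical axis, 1 panel a gene, all panels spanning the same range of log2 units) on the 3 liver arrays (brown) and the 3 spleen arrays (blue). Points are arrays, lines are group means and bands are 1 SD either side (n = 3). In Dusp10, Dusp4, Dusp5 and Dusp16 spleen arrays 4 and 5 lie above the liver arrays and spleen array 6 lies near them or below.

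Dusp10, which dephosphorylates JNK and p38, measured 7.60, 7.79 and 7.61 on liver arrays 2, 3 and 7 and 8.62, 8.73 and 7.92 on spleen arrays 4, 5 and 6. The groups did not overlap, but spleen array 6 lay much nearer to the liver arrays than to the other 2 spleen arrays. The group means were 7.66 ± 0.11 in liver and 8.42 ± 0.44 in spleen (SD, n = 3). The difference was -0.76 (SE 0.18, 95% confidence interval -1.15 to -0.36, limma adjusted p = 0.365), which is 1.29 to 2.22 times higher in spleen. Only 0.0463% of all genes had a more negative difference, and Dusp10 ranked 117 of 38854 genes by p. Without spleen array 6 the difference was -1.01 (SE 0.13) and passed, with a limma adjusted p of 0.0302, beside 0.0489% of all genes called in that fit. Leaving out any other array gave differences from -0.82 to -0.61, none of which passed. With array weights the difference was -0.46 (limma adjusted p = 0.0462).

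Dusp16, also a phosphatase of JNK and p38, measured 6.57, 6.41 and 6.32 on liver arrays 2, 3 and 7. On spleen arrays 4, 5 and 6 it measured 6.92, 6.91 and 6.41. Spleen array 6 fell within the liver values and the other 2 lay above all of them. The difference was -0.31 (SE 0.15, 95% confidence interval -0.64 to 0.01). It was -0.48 to -0.23 with 1 array left out, the first without spleen array 6, and turned to 0.0285 with array weights. Dusp8, of the same class, measured 6.30, 6.30 and 6.41 in liver and 6.32, 6.71 and 6.37 in spleen, where only spleen array 5 stood out, the array with the highest background rows. Its difference was -0.12 (SE 0.13, 95% confidence interval -0.40 to 0.15). Leaving out spleen array 5 gave -0.0015, leaving out spleen array 4 gave -0.20, and array weights gave -0.07.

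Among the nuclear phosphatases, Dusp5, which is selective for ERK, measured 9.09, 9.14 and 9.10 on liver arrays 2, 3 and 7 and 9.65, 9.47 and 9.11 on spleen arrays 4, 5 and 6. The liver arrays lay within 0.05 of each other, and spleen array 6 lay among them. The difference was -0.30 (SE 0.14, limma adjusted p = 1). Leaving out spleen array 4 gave -0.18, leaving out spleen array 6 gave -0.45, and array weights gave -0.12. Dusp4, which acts on ERK and JNK, measured 8.09, 8.29 and 8.14 in liver and 8.73, 8.64 and 7.89 in spleen. Spleen arrays 4 and 5 were the 2 highest of the 6 arrays and spleen array 6 the lowest. The Dusp4 difference was -0.25 with all arrays (95% confidence interval -0.65 to 0.16), -0.51 without spleen array 6, -0.14 without spleen array 5 and -0.09 without spleen array 4, and it turned to 0.0468 with array weights.

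Dusp1, which acts on p38, JNK and ERK, measured 11.07, 11.04 and 10.91 in liver and 11.21, 11.27 and 11.10 in spleen. The groups did not overlap, but the gap between liver array 2 and spleen array 6 was smaller than the SD of 0.09 within either group. The difference was -0.19 (SE 0.11, 95% confidence interval -0.43 to 0.05) and -0.07 with array weights, and an exact two-sided permutation test gave p = 0.1, the smallest that 3 against 3 arrays allow. Dusp2, which is abundant in activated lymphocytes, measured 8.08, 8.19 and 7.97 in liver and 8.21, 8.15 and 7.83 in spleen, with groups that overlapped and spleen array 6 again the lowest. Its difference was 0.02 (95% confidence interval -0.26 to 0.30), and the sign changed between settings, with -0.10 without spleen array 6, -0.04 without liver array 3, 0.07 without liver array 7, 0.06 and 0.09 when spleen array 5 or 4 was left out, and 0.18 with array weights.

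The cytoplasmic ERK phosphatases did not share one direction. Dusp6, the classic feedback phosphatase of ERK, measured 6.78, 6.81 and 6.61 in liver and 6.96, 7.17 and 6.66 in spleen. Spleen array 6 again lay within the liver values. The difference was -0.20 (SE 0.14), -0.33 without spleen array 6 and -0.08 without spleen array 5, and it turned to 0.0361 with array weights. Dusp7 measured 8.04, 8.10 and 7.90 in liver and 7.87, 7.93 and 7.71 in spleen, overlapping only between liver array 7 and spleen array 5. Its difference was 0.18 (SE 0.11, 95% confidence interval -0.07 to 0.42). It was 0.11 without spleen array 6, and 0.29 with array weights, where it was called (limma adjusted p = 0.0305). Dusp9 measured 6.64, 6.38 and 6.70 in liver and 6.40, 6.49 and 6.47 in spleen, and was the one phosphatase that varied more among liver than among spleen arrays. Its difference was 0.12 (95% confidence interval -0.14 to 0.38), 0.22 without liver array 3 and 0.06 without liver array 7.

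Spleen array 6 was the lowest spleen array in 8 of the 10 phosphatases, beside 40.9% of all genes. Variation within spleen exceeded that within liver in 9 of 10, beside 70.5% of all genes. With spleen array 6 left out, every liver array lay below every spleen array in 6 of 10 (Dusp1, Dusp4, Dusp5, Dusp6, Dusp10 and Dusp16), beside 8.84% of all genes. Spleen array 6 was singled out after these same values were seen. Leaving out an array picked as low favours separation, so the all-gene shares are no fair baseline for the counts without it. Leaving out liver array 2, spleen array 4 or spleen array 5 gave 2 of 10 (beside 4.21%, 11.4% and 5.19% of all genes), and leaving out liver array 3 or 7 gave 3 of 10 (beside 7.4% and 6.12%). At an unadjusted p under 0.05, 5 of 10 were past the threshold without spleen array 6 (beside 3.87% of all genes), and 1 of them, Dusp10, passed after adjustment. Leaving out any other array gave 1 or 2 of 10 at an unadjusted p under 0.05, beside 966 to 2321 of the 38854 genes.

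By the level of Ctse, the 6 arrays also fell into 2 sets that crossed the tissues and that the labels do not explain. Ctse, a cathepsin gene, measured 11.2, 11.3 and 11.1 on liver array 7 and spleen arrays 4 and 5, and 8.67 to 8.76 on liver arrays 2 and 3 and spleen array 6. Habp2 ran the opposite way, at 5.51 to 5.73 and 8.19 to 8.44. Both genes were chosen after their values were seen. Over all genes the arrays did not separate by set. Pearson r was 0.9918 to 0.9974 between arrays of the same set and 0.9917 to 0.9957 between arrays of different sets. The arrays did not separate by tissue either, with r of 0.9918 to 0.9974 within a tissue and 0.9917 to 0.9957 between tissues. Within the set of high Ctse (1 liver and 2 spleen arrays) the difference was -1.07 for Dusp10, -0.60 for Dusp16, -0.54 for Dusp4 and -0.46 for Dusp5. Within the set of low Ctse (2 liver arrays and 1 spleen array) it was -0.22 for Dusp10, 0.08 for Dusp16, 0.30 for Dusp4 and 0.01 for Dusp5. The difference was negative in 8 of 10 phosphatases within the first set and in 3 of 10 within the second, with medians of -0.39 and 0.06, beside -0.07 and 0.06 over all genes. The split again sets spleen array 6 apart from spleen arrays 4 and 5, so these counts restate the same values and are not separate evidence. Liver array 7, which belongs to the set of high Ctse, measured 7.61 for Dusp10, 6.32 for Dusp16, 8.14 for Dusp4 and 9.10 for Dusp5, below spleen arrays 4 and 5 of the same set in each. With the set as a block, added after the data were seen, Dusp10 differed by -0.65 (SE 0.17, limma adjusted p = 0.253). No phosphatase was called in that fit, beside 0.201% of all genes. Whether the tissue difference itself differs between the sets was not tested.

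**Figure D2:**
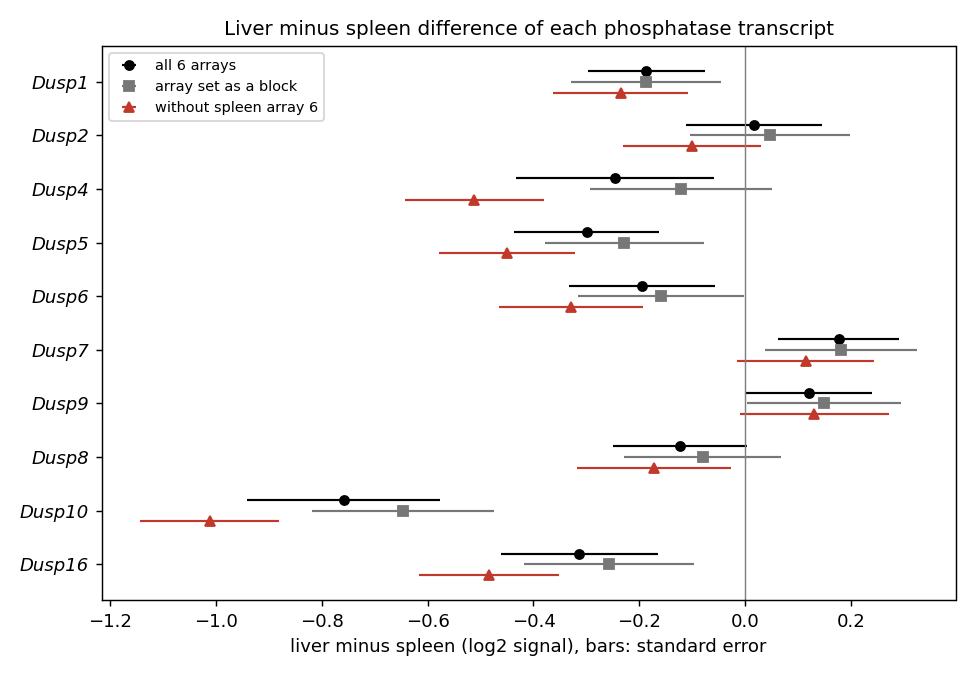
Liver minus spleen difference of each phosphatase (horizontal axis, log2 signal, bars are 1 standard error from limma) with all 6 arrays (black circles), with the array set as a block (grey squares) and without spleen array 6 (red triangles). Dusp10 lies at -0.76, -0.65 and -1.01, and Dusp4 moves from -0.25 to -0.51 without spleen array 6.

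The genes whose levels over the 6 arrays were most like those of the 3 most variable phosphatases were listed among genes with a mean of at least 7 and an SD of at least 0.3 on the log2 scale. Dusp10 was most like the nuclear receptor gene Nr4a3 (Pearson r = 0.996 over 6 arrays), Ifrd1 (r = 0.995) and Rasgef1b (r = 0.995). Nr4a3 measured 8.30, 8.45 and 8.27 on liver arrays 2, 3 and 7 and 9.0, 9.02 and 8.48 on spleen arrays 4, 5 and 6, with a difference of -0.50 (SE 0.15, limma adjusted p = 0.612). Dusp4 was most like Mir6395 (r = 0.980), Lrrc32, which encodes the Treg surface protein GARP that holds latent TGF-beta (r = 0.980), and Snord73a (r = 0.978). Dusp16 was most like Irg1 (r = 0.973), Gramd3 (r = 0.962) and the transcription factor gene Ets2 (r = 0.955). With 6 arrays and 341 or 342 eligible genes, these coefficients describe the arrays, which share tissue, array set and normalization, and they carry no test.

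Genes of the surrounding pathway were read from 9 lists, in which none of 112 distinct genes was called by limma over all genes. The MAP kinase genes, a list wider than the ERK, JNK and p38 kinases named above, differed little between the tissues by mean. The 13 MAP kinase genes had differences from -0.14 to 0.21 (median -0.02), with 0 past an unadjusted p of 0.05. Mapk9, which encodes a JNK, was at 0.21, Mapk11, a p38, at -0.14 and Mapk8, a JNK, at -0.13. Mapk10 measured 4.68 to 4.96, near the mean background, so its small difference is not informative. The 7 kinases of the tier above, Map2k1 to Map2k7, had a median of 0.10 and a range of -0.05 to 0.17, with Map2k3 at 0.17, Map2k1 at 0.14 and Map2k5 at 0.13. The 15 genes of Ras and Raf input had a median of 0.03, with Nras at 0.18, Grb2 at 0.12 and Hras at 0.10. The 16 genes listed as small atypical dual-specificity phosphatases, most of which lack the kinase-binding part of the 10, had a median of 0.00. Their range was -0.19 to 0.19, with Dusp14 at -0.19, Dusp19 at 0.19 and Dusp21 at -0.17. Dusp21 measured 3.89 to 4.43, at the level of the mean background, so its difference is not interpretable. The 8 other phosphatases of MAP kinases had a median of 0.02, with Ppp2cb at 0.19 and Ptpn5 and Ppm1b at -0.18 each. The median over all genes was -0.02.

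The feedback and target genes of the pathway were read in the same way. Of 18 adaptors and targets of p38 and JNK, 4 had an unadjusted p under 0.05, all lower in liver by mean, beside 1.68% of all genes in that direction, and their median was -0.05. They were the stress-induced genes Gadd45b at -0.49, Gadd45g at -0.37 and Gadd45a at -0.29 and the RNA-binding protein gene Zfp36l1 at -0.29. Gadd45b, whose product binds kinases upstream of p38 and JNK, measured 8.75, 8.87 and 8.68 on liver arrays 2, 3 and 7 and 9.59, 9.47 and 8.70 on spleen arrays 4, 5 and 6. Spleen array 6 lay among the liver arrays and the other 2 spleen arrays lay above them. Of 16 ERK-induced transcripts 1 had an unadjusted p under 0.05, Egr2 at -0.34 (SE 0.11, limma adjusted p = 0.719), and the median was -0.07. Egr2, a transcription factor induced by the T cell receptor, measured 9.10, 9.11 and 8.92 in liver and 9.34, 9.42 and 9.37 in spleen. Here spleen array 6 lay with the other spleen arrays, unlike in Dusp10. Fos was at -0.30 and Ier2 at -0.27. Of the 6 Sprouty and Spred genes, which restrain the Ras to ERK route, none had an unadjusted p under 0.05, and Spred1 was at -0.29, Spry1 and Spred2 at -0.18 each (median -0.13).

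With all 6 arrays, every liver array lay below every spleen array in 1 of the 18 p38 and JNK genes, 2 of the 16 ERK-induced transcripts, 0 of the 6 Sprouty and Spred genes and 2 of 21 genes that respond to tissue dissociation and heat shock, beside 3.09% of all genes. Without spleen array 6, an array singled out after its values were seen, this was so in 10 of the 18 p38 and JNK genes, 9 of the 16 ERK-induced transcripts and 2 of the 6 Sprouty and Spred genes. The same count was 2 of 13 MAP kinases, 0 of 7 Map2k genes, 2 of 15 Ras and Raf genes, 2 of 8 other MAP kinase phosphatases and 0 of 16 small atypical phosphatases, beside 8.84% of all genes. It was 13 of the 21 dissociation and heat shock genes, and 7 of those 13 belong to another of these lists too. Within the dissociation list Nr4a2 was at -0.60 and Nr4a3 at -0.50. The heat shock genes Hspa1a and Hspa1b were at 0.80 and 0.48, and Hsph1 was at 0.46. Hspa1a and Hspa1b are near copies of each other, and their levels are uncertain for that reason. In 3 of the 21 genes, Hspa1a, Hspa1b and Hsph1, every liver array lay above every spleen array, beside 3.11% of all genes. The heat shock genes Hsp90aa1, Dnajb1 and Hspa8 were at 0.09, 0.06 and 0.03. Hspa1a was lowest on spleen array 6, at 6.53, and highest on liver array 7, at 8.45. The part of sample handling in the phosphatase values was not tested.

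**Figure D3:**
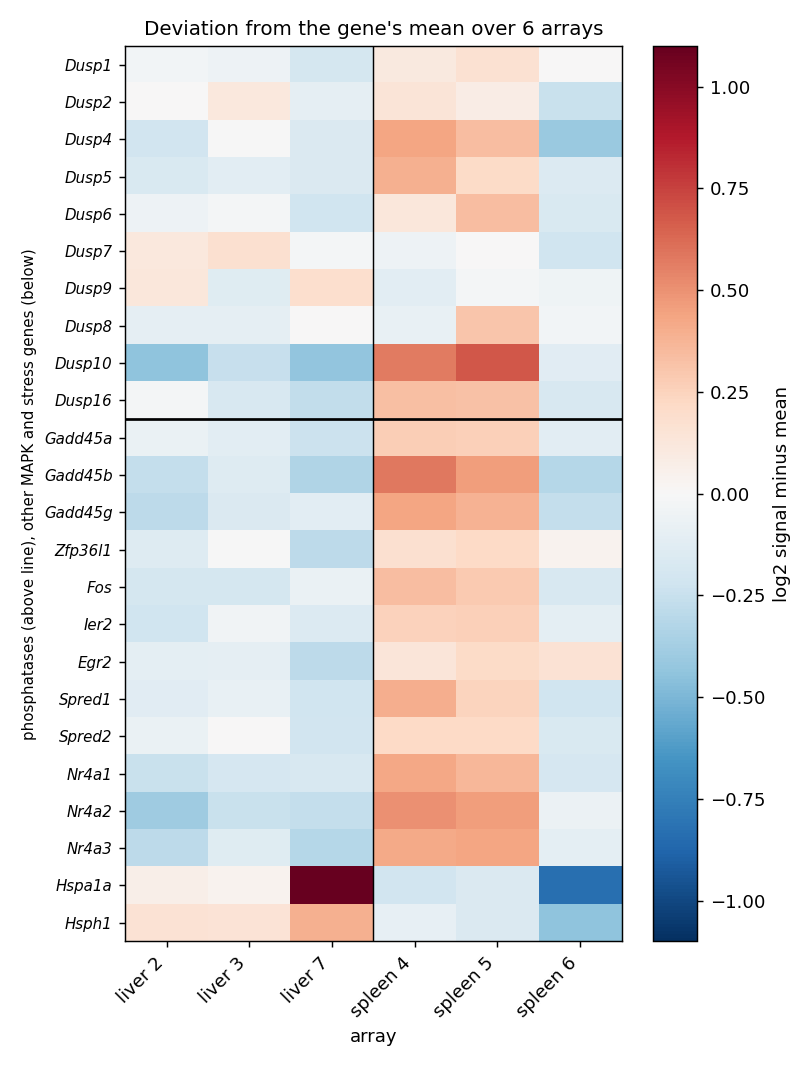
Log2 signal minus the gene's mean over the 6 arrays (colour, red above and blue below the mean) for the 10 phosphatases (above the line) and 14 other pathway and stress genes (below it), with arrays in columns. Spleen arrays 4 and 5 are red in Dusp10, Gadd45b and Nr4a2, spleen array 6 is pale or blue in them, and Hspa1a is darkest red on liver array 7 and darkest blue on spleen array 6.

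**Figure D4:**
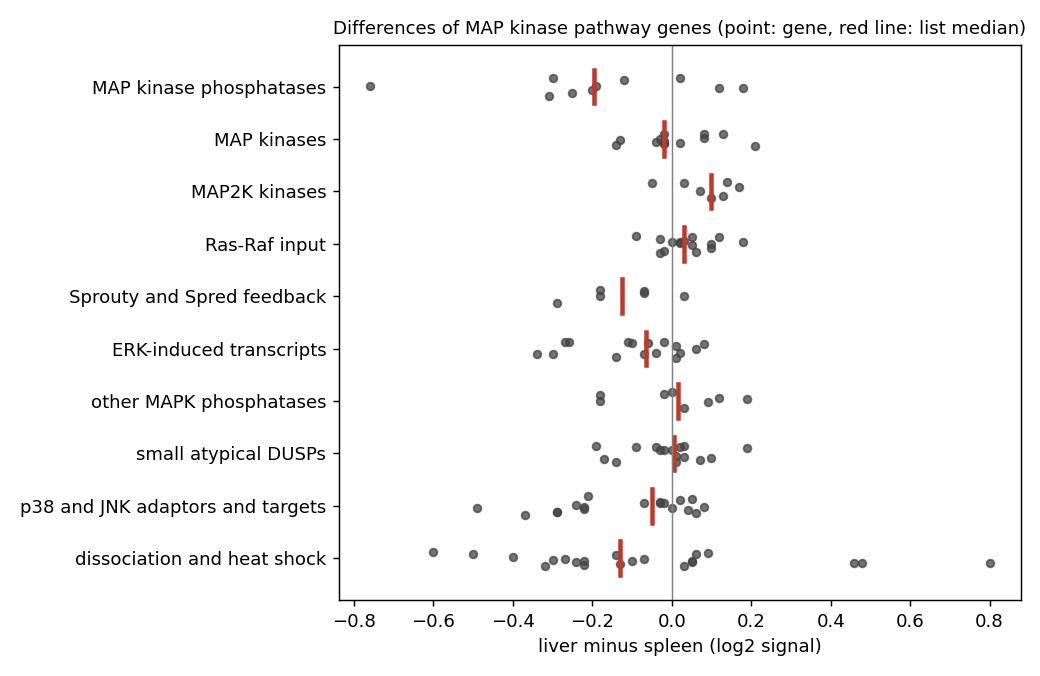
Liver minus spleen difference (horizontal axis, log2 signal) of each gene (points) in the phosphatase list and the 9 pathway lists (vertical axis), with the list median as a red line. The phosphatase median is -0.19 with Dusp10 at -0.76, and the MAP kinases lie between -0.14 and 0.21.

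Markers of other cell types also differed between the groups by mean, though none was called by limma over all genes. Of 7 NK cell markers 6 were higher in liver by mean, and their summed linear signal was 705 to 1346 on liver arrays and 427 to 553 on spleen arrays. Of 7 dendritic cell markers 6 were higher, with sums of 601 to 889 and 426 to 531. Of 8 macrophage and monocyte markers 5 were higher, with sums of 1189 to 1627 and 948 to 1238, which overlap. The other 3, Csf1r at -0.03, Adgre1 at -0.15 and Clec4f at -0.11, were lower in liver by mean. Ly6c2 was the brightest of the 8 on every array, so these sums weigh it most. Of all genes, 57.7% were lower in liver by mean. None of these markers is listed at 0 on an array, since every row carries background. On spleen array 6, where Dusp10, Dusp4, Dusp5 and Dusp16 were near the liver levels or below, the NK sum was 541 and the dendritic cell sum 426, within the range of the other 2 spleen arrays or at its lower end. Of the 7 NK markers 5 were at their lowest spleen value on that array, while Tyrobp, which myeloid cells also express, was at its highest spleen value there, 8.42. The macrophage and monocyte sum of that array, 948, was the lowest of the 6. Both CD8 T cell markers were higher in liver, with sums of 681 to 709 and 402 to 630, the lowest on spleen array 6. For B cells, neutrophils, hepatocytes, erythroid cells, T cells and Treg the sums of liver and spleen arrays overlapped. Some single markers separated all the same. Ms4a1 and Cd79a of 5 B cell markers and Alb of 6 hepatocyte markers were higher on every liver array, beside 3.11% of genes. Izumo1r of 8 Treg markers and Hbb-bs of 3 erythroid markers were lower on every liver array, beside 3.09%. Their differences were 0.38, 0.16, 0.47, -0.27 and -0.22 in that order. The part of these cells in the liver and spleen differences was not tested.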

How the data were processed

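RNA of 6 Treg samples was hybridised to Affymetrix arrays, named Mouse Gene ST 2.0 in the labels and MTA-1_0 in the file headers. The deposited values are log2 signals which, per the submitters' processing notes, come from RMA run in Affymetrix Expression Console; its version, the genome build and the annotation are not stated there. RMA equalises probe distributions between arrays and compresses differences of dim genes. The 2 deposited tables held the same numbers.

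Rows with 1 gene symbol were kept (39514 of 72688), with the row of highest mean for the 526 symbols that had several, which gave 38854 genes. Groups were taken from sample titles. Liver was compared with spleen with limma 3.58.1 in R 4.3.3, two-sided, with p-values adjusted by Benjamini-Hochberg over the 38854 genes and no covariate. The procedure was checked on simulated arrays with independent noise for each gene. They held no array set and no unequal array quality, so the check does not cover these. Lists were described by counts and medians. The members and lists were chosen with earlier results of these data known. The text names all 10 members, for each pathway list any called gene and the 3 largest absolute differences, the 3 genes most like each of the 3 most variable members (predicted models left out), and the Treg markers. Gadd45a, Zfp36l1, Hspa1b, Hsph1, Hsp90aa1, Dnajb1, Hspa8, Ctse and Habp2 were chosen after their values were seen. So were Mapk10 and the single cell type markers named outside the check of the Treg label. Promoters come from RefSeq (GRCm38.p6), which held 8 of the 10 members. Alternatives were other normalizations, filters on dim genes, averaged rows, an intensity trend, array weights, each array left out, and the array set as a block.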

Additional observations from a re-analysis of the deposited data

How the results depend on the processing

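No paired analysis was possible because liver arrays (2, 3, 7) and spleen arrays (4, 5, 6) share no number in the labels. Of 150 values of single phosphatases under alternatives, 140 kept their direction and side of the threshold. With the filters on dim genes, averaged rows and an intensity trend, the differences equal those of the main fit by design. Their direction could not change there. The number of genes called, 8 with all arrays, was 0 after median subtraction, quantile normalization and cyclic loess, 18 and 21 after leaving out the lower 50% of genes and genes of mean under 5, 23 with an intensity trend, 78 with the array set as a block, 3533 with array weights and 0 to 33 with 1 array left out. At an unadjusted p under 0.05 it was 1448, 2391 and 2429 genes for the rescalings and 2017 without spleen array 5. For the same rescalings 1, 4 and 4 of the 10 phosphatases were past that threshold, beside 2 in the main fit. The 4 were Dusp1, Dusp5 and Dusp10, lower in liver, and Dusp7, higher in liver. The number of phosphatases called was 0 to 1 with 1 array left out, and 2 with array weights (Dusp7 at 0.29, adjusted p = 0.0305, and Dusp10 at -0.46, adjusted p = 0.0462), beside 9.09% of all genes. Those weights were 9.34 for liver array 2, 2.35 for spleen array 6 and 0.188 to 1.05 for the others. Weighted values therefore rest mostly on liver array 2 and spleen array 6. Under these weights the median of the 10 was 0.0323, Dusp4 0.0468, Dusp6 0.0361 and Dusp16 0.0285, all reversed. Why the arrays were weighted so unequally was not tested. With 1 array left out the median was -0.28 to -0.11. Dusp2 reversed to -0.0166 after quantile normalization and -0.0123 after cyclic loess, and ran from -0.10 to 0.0905 with 1 array left out. Signal near the brighter background rows limits Dusp6, Dusp8, Dusp9 and Dusp16 on every array. It also limits Dusp10 on liver arrays 2 and 3, and Dusp2 and Dusp7 on spleen array 5.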
